A study of Mus musculus with 10 samples.

Results

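The regions described here lie in a 6 Mb window of mouse chromosome 8 (GRCm39) around a 2 Mb segment that borders the alpha-defensin gene cluster. They were taken from a CUT&Tag count table as every region starting after 17.5 Mb and ending by 23.5 Mb, which gave 203 of the 69418 regions in the table. The segment from 19.5 to 21.5 Mb held 103 regions, the flank on its left 34 and the flank on its right 66. The segment was picked because its CUT&Tag reads were lower in the knockout libraries, so its CUT&Tag values, including the calls of a fit over all regions, are given as a description and not as evidence of a difference. RNA sequencing of other libraries was not used in the choice.

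The samples were neural stem and progenitor cells (NSPCs), self-renewing cells that give rise to neurons and glia, from mouse brain. The labels give the genotype WT or Mina53-KO and enter the treatment as "non". Mina53, now named Riox2, is a JmjC-domain oxygenase that, by the title of the series, removes arginine methylation from histone H4. CUT&Tag, in which an antibody guides a transposase that cuts nearby chromatin, was run on 2 libraries of each genotype, whose reads in regions numbered 2913959 to 4038765. RNA-seq was run on 3 libraries of each genotype, and their totals ran from 19923010 to 25939376 counts. Neither the antibody nor a spike-in, the part of the brain or the kind of disruption is stated in the labels, and the CUT&Tag samples are also tagged as a cell line. Whether each library had its own animal or culture is not stated either, so a p-value speaks only for the spread among these libraries. Riox2 RNA stood at 3.26, 3.78 and 3.70 CPM (counts scaled to the size of the library, per the TMM method) in the KO libraries, 0.193 of the WT level (adjusted p = 0.000324, edgeR), in the direction the labels give.

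Defensins are small cationic peptides that kill microbes by disrupting their membranes. In the mouse, alpha-defensins (cryptdins) are made mainly by Paneth cells of the small intestine, and beta-defensins by epithelia of skin, airway and reproductive tract. Both families have grown by tandem duplication, so that neighbouring genes and their promoters are near copies of each other. POTE ankyrin domain proteins, whose mouse genes are also duplicated here, combine ankyrin repeats with coiled-coil stretches.

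Promoter windows from RefSeq (GRCm38.p6, 250 bases before to 50 after the gene start) were found for 2 of the 24 segment gene symbols, Defa21 and AY761185, and they are shown because the regions assigned to these genes had the lowest median log2 fold changes of any segment gene. The promoter of Nek3, a kinase gene in the right flank whose RNA was higher in KO, is shown for contrast. Capitals mark the TATA motif TATAAA and the TCF/LEF core CTTTGAT, the latter written ATCAAAG where it lies on the other strand.
Defa21 (GRCm38.p6, chr8:21025295-21025594, plus strand): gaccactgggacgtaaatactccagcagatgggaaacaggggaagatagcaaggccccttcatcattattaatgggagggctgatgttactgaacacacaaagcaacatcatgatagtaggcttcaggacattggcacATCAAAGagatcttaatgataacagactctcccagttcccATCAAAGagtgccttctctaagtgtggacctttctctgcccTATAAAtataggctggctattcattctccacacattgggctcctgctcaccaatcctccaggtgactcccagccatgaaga
AY761185 (GRCm38.p6, chr8:20944699-20944998, minus strand): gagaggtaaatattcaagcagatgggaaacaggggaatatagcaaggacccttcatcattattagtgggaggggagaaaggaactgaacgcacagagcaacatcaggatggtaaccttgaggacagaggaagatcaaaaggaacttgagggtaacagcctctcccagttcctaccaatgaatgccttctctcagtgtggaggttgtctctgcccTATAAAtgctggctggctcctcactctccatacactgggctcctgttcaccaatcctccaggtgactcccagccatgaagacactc
Nek3 (GRCm38.p6, chr8:22162445-22162744, minus strand): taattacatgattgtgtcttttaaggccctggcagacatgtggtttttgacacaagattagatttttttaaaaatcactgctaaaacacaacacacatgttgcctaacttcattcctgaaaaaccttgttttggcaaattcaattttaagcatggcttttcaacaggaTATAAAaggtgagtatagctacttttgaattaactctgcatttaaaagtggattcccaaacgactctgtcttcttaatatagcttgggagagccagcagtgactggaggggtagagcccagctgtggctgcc

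The Defa21 promoter held 1 TATAAA, at position 220 of the window, and CTTTGAT on the minus strand at positions 139 and 179. The other pair of windows held 1 TATAAA each and no CTTTGAT on either strand. Over all 32851 RefSeq promoters of this length, 13.6% held TATAAA and 3.73% held CTTTGAT on either strand. Among the 16 alpha-defensin promoters in the table, 15 held TATAAA and 13 held CTTTGAT. The AY761185 window was 80.8% identical to that of Defa21, and 15 other alpha-defensin promoters ranged from 51.2% to 100% identity with a median of 81.6%. Nek3 and Defa21 shared 46.3%. AY761185 therefore resembles the alpha-defensins in its promoter although its symbol does not name it as one. Motif matches describe letters only, and none of the member regions lay on the Defa21 start site: the 3 regions assigned to Defa21 lay 14974 to 29019 bases upstream of it.

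The label of the segment was checked against its genes. Of the 26 Ensembl genes to which the authors assigned segment regions, Defa21 alone carries a defensin symbol, and it holds 2 of the 103 regions. Its gene body, at 21515561 to 21516532, lies past the right border of the segment. A further 2 regions belong to AY761185. Predicted genes named Gm make up 16 of the 26 genes and hold 70 regions, 4 POTE genes (Potefam3a, Potefam3b, Potefam3e and Potefam3f) hold 10, and 4 Ensembl entries named 2610005L07Rik or 6820431F20Rik hold 19. For each of these Rik symbols, 1 of its 2 entries is described as a cadherin 11 pseudogene. By its assigned genes, the segment is thus better called a POTE and predicted-gene segment beside the defensins than a defensin segment. Its right end is an exception, since AY761185, with its alpha-defensin-like promoter, lies inside it at 21433710 to 21434726. Genes of the segment without a region were not counted.

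Several of the assigned genes have the same annotated length. Gm7760, Gm7807 and Gm21112 each span 578 bases, and Gm10060 and Gm21769 each span 111 bases. Gm21811, Gm21092, Gm6483 and the shorter 2610005L07Rik entry span 15164 to 15288 bases. Regions sit at similar distances from such pairs: 1 lies 1608 bases upstream of the start of Gm7760 and 1 lies 1627 bases upstream of Gm21112. Regions within such genes may share sequence, which was not measured here, and may then not be independent of each other. The sources used here do not say how reads that match several copies were assigned.

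CUT&Tag reads in the segment were lower in both KO libraries, and reads in the flanks were not. Summed over its 103 regions, the segment measured 3116 CPM in WT 1, 2725 in WT 2, 2007 in KO 1 and 2042 in KO 2, where CPM are relative to the reads in regions. The flank regions together measured 1310 and 1311 CPM in WT and 1259 and 1372 CPM in KO. The KO libraries thus lay below both WT libraries in the segment and on either side of them in the flanks. The segment mean was 2920 ± 276 CPM in the WT group, against 2024 ± 24.8 CPM in the KO group (SD, n = 2 each), 1.44-fold higher in WT.

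The ratio of segment reads to flank reads within a library needs no scaling between libraries. It was 2.38 in WT 1, 2.07 in WT 2, 1.58 in KO 1 and 1.49 in KO 2. The lowest WT ratio stayed above the highest KO ratio. The WT libraries also differed from each other inside the segment: the median log2 ratio of WT 2 over WT 1 was -0.27 over segment regions and -0.02 over flank regions. The same ratio between the KO libraries was -0.01 in the segment and 0.11 in the flanks. Without WT 1, the log2 difference between segment and flanks was -0.43, against -0.53 with all 4 libraries.

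Single regions followed the sums. The median log2 fold change, KO over WT, was -0.56 in the segment, with quartiles of -0.80 and -0.31. It was 0.01 in the flanks and 0.00 over the rest of chromosome 8. Below 0 were 95 of the 103 segment regions, against 49.4% of all regions tested and 48 of the 99 flank regions tested. Both KO libraries lay below both WT libraries in 74 segment regions (71.8%), against 17.8% of all regions tested, and in 14 flank regions. They lay above both WT libraries in 1 segment region, against 16.9% of all regions tested. An adjusted p under 0.05 was reached by 3 segment regions, the only 3 called lower in the table, which is 0.00433% of all regions tested; calls in either direction made up 0.00722%. The segment was chosen on this contrast, so these counts describe it and are no evidence of their own.

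**Figure D1:**
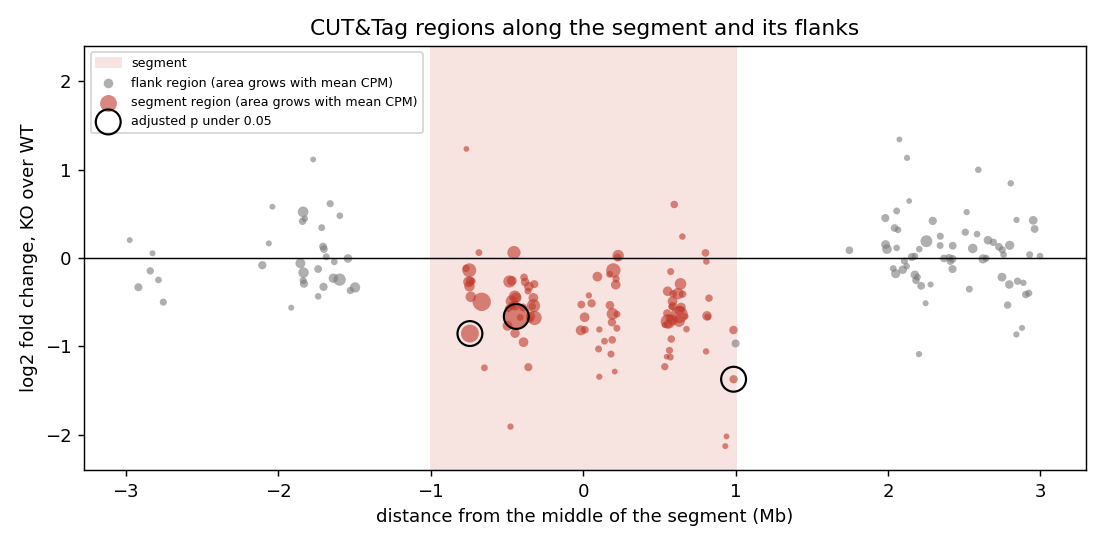
Log2 fold change (KO over WT) of each CUT&Tag region tested, against its distance in Mb from the middle of the segment, with point area growing with the mean CPM and circles around regions with an adjusted p under 0.05. The segment regions centre on -0.56, while the flank regions, most of them beyond empty stretches, centre on 0.01 together.

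**Figure D2:**
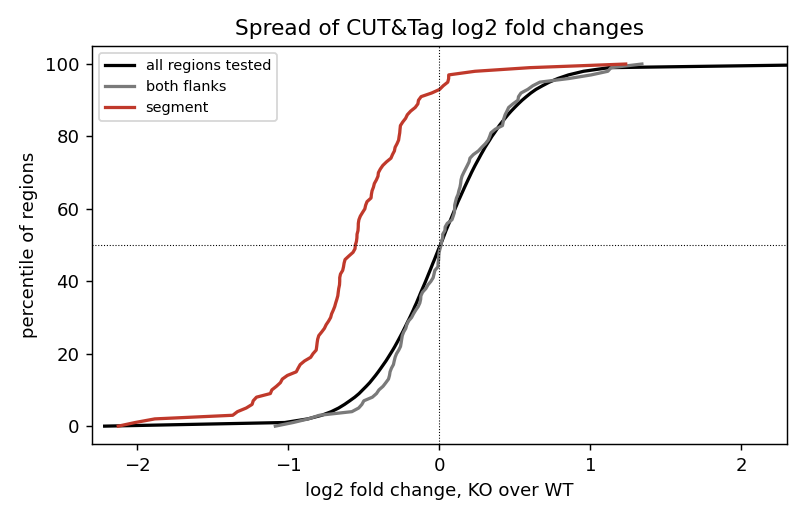
Percentiles (y axis) of the log2 fold change, KO over WT (x axis), for the 103 segment regions, the 99 flank regions tested and all 69209 regions tested. The curve of the flanks runs along that of all regions, and the segment curve is shifted to the left with its median at -0.56.

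In the authors' deposited table, the segment regions had a median log2 fold change of -0.47. There, 6 of them had a p under 0.05, against 2.34% of all regions in the authors' deposited table, and the lowest q-value among them was 1.

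The regions of the segment form 6 blocks separated by more than 100 kb without a region. Wider empty stretches of 728 kb on the left and 746 kb on the right part the segment from most of its flanks. Each block was lower in both KO libraries than in both WT libraries. Block 1, with Gm6483, Gm7760, Potefam3e and Gm10060, measured 501 and 496 CPM in WT and 360 and 369 CPM in KO. Block 2, with the Rik transcripts, Gm7807 and Potefam3a, carried the most reads, with 1091 and 942 CPM in WT and 672 and 739 CPM in KO. Block 3, with Potefam3f, Gm21769 and Gm21811 among others, measured 563 and 486 CPM in WT and 376 and 375 CPM in KO. These 3 blocks were 1.37 to 1.44-fold higher in WT.

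Block 4, with Gm56829, Gm21112 and Potefam3b, measured 800 and 659 CPM in WT and 513 and 466 CPM in KO, a ratio of 1.49-fold. Block 5 held 6 regions, with 85.7 and 87.2 CPM in WT and 61.5 and 64.3 CPM in KO. Block 6, the 4 regions of AY761185 and Defa21 next to the right border, measured 75.04 and 55.02 CPM in WT and 25.1 and 28.4 CPM in KO. At 2.43-fold, the block beside the alpha-defensins had the largest ratio of the 6, on the fewest regions and reads. The direction was thus the same in every block of a segment that was chosen on this contrast. Genes of equal annotated length lie in different blocks, so the blocks may not be independent of each other.

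**Figure D3:**
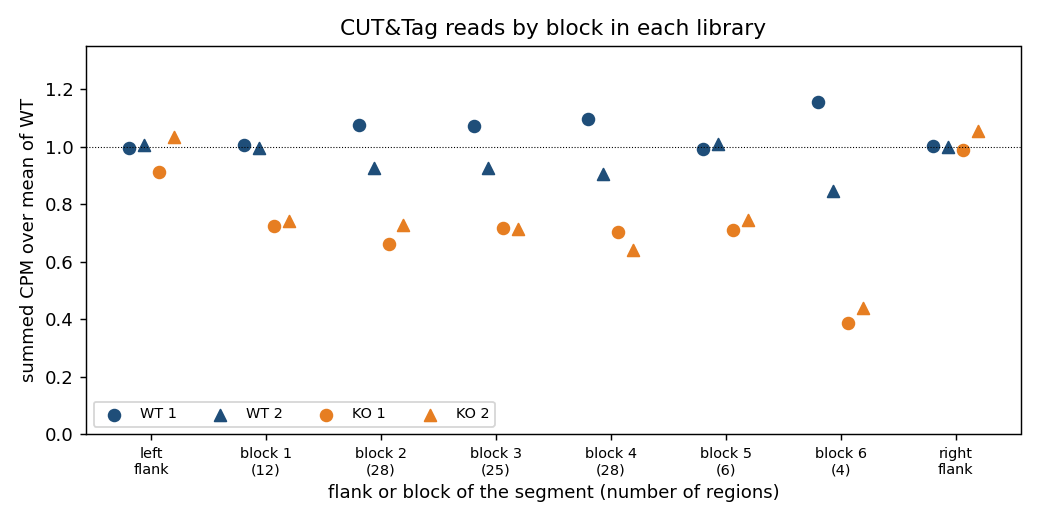
Summed CPM of each library divided by the mean of the WT libraries (y axis, starting at 0) for the left flank, the 6 blocks of the segment in order along the chromosome, with their number of regions, and the right flank. KO 1 and KO 2 lie below both WT libraries in each block and at about the WT level in both flanks.

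The 3 regions with an adjusted p under 0.05 lay in blocks 1, 2 and 6. The first, chr8:19757117-19757965, is intergenic and assigned to Gm7760, a predicted gene 3756 bases away. It measured 127 and 137 CPM in WT and 70.7 and 75.3 CPM in KO (log2 fold change -0.85, SE 0.14). The second, chr8:20060834-20062709, is annotated as the promoter of Gm7807, spans 1876 bases and is the widest region of the segment with the most reads. It measured 228 and 205 CPM in WT and 137 and 137 CPM in KO (log2 fold change -0.66, SE 0.13). In both regions the WT libraries stood clear of the KO libraries. The first call was lost without either KO library, and the second without KO 1, KO 2 or WT 1. The second call was also lost with scaling to library totals.

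The third, chr8:21486866-21487212, is the last region inside the right border and lies 28349 bases upstream of Defa21. It measured 27.8 and 21.1 CPM in WT and 10.5 and 8.30 CPM in KO (log2 fold change -1.37, SE 0.30). Its call was lost in 7 of 10 alternative fits, among them those without KO 1, KO 2 or WT 1. The next region, chr8:21500221-21500587, starts past the border, is also assigned to Defa21, and measured 19.1 and 22.5 CPM in WT and 9.76 and 11.6 CPM in KO. The border of the rule thus falls inside a run of lower regions on the right. On the left, the last region outside, at the promoter of Xkr5, measured 34.0 and 31.8 CPM in WT and 22.9 and 29.6 CPM in KO (log2 fold change -0.33). The first region inside, on the start of Gm6483, measured 14.2 and 11.8 CPM in WT and 12.7 and 11.3 CPM in KO (log2 fold change -0.12), and these groups overlapped.

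Among the 10 segment regions with the most reads, 7 had both KO libraries below both WT libraries and a WT mean at least 1.41-fold that of KO. Another of the 10, assigned to Gm7760, also had both KO libraries below both WT libraries, at 1.10-fold. Among all regions of 100 reads or more, 31.2% had both KO libraries below both WT libraries, whatever their fold. A region on Gm10060 measured 127 and 126 CPM in WT and 88.1 and 91.6 CPM in KO. A region 6145 bases from Gm21112 measured 120 and 106 CPM in WT and 78.5 and 66.1 CPM in KO. An intergenic region assigned to Gm56829 measured 90.2 and 77.2 CPM in WT and 55.1 and 46.5 CPM in KO. Each of these lay below WT in both KO libraries without an adjusted p under 0.05. A pair assigned to 6820431F20Rik, 16078 and 23222 bases from its start, had log2 fold changes of -0.54 and -0.68.

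The remaining 3 of the 10 differed little. A further region of Gm7760, 8065 bases from its start, measured 61.5 and 63.0 CPM in WT and 53.7 and 59.6 CPM in KO. The region on the start of Gm21769 measured 71.5 and 61.9 CPM in WT and 64.4 and 56.6 CPM in KO, so that the groups overlapped. A region of Gm7807 in an exon of a Rik transcript measured 64.7 and 39.1 CPM in WT and 52.2 and 56.6 CPM in KO, with the KO values between the WT values. Strongly covered regions of the segment therefore included some with a log2 fold change near 0.

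**Figure D4:**
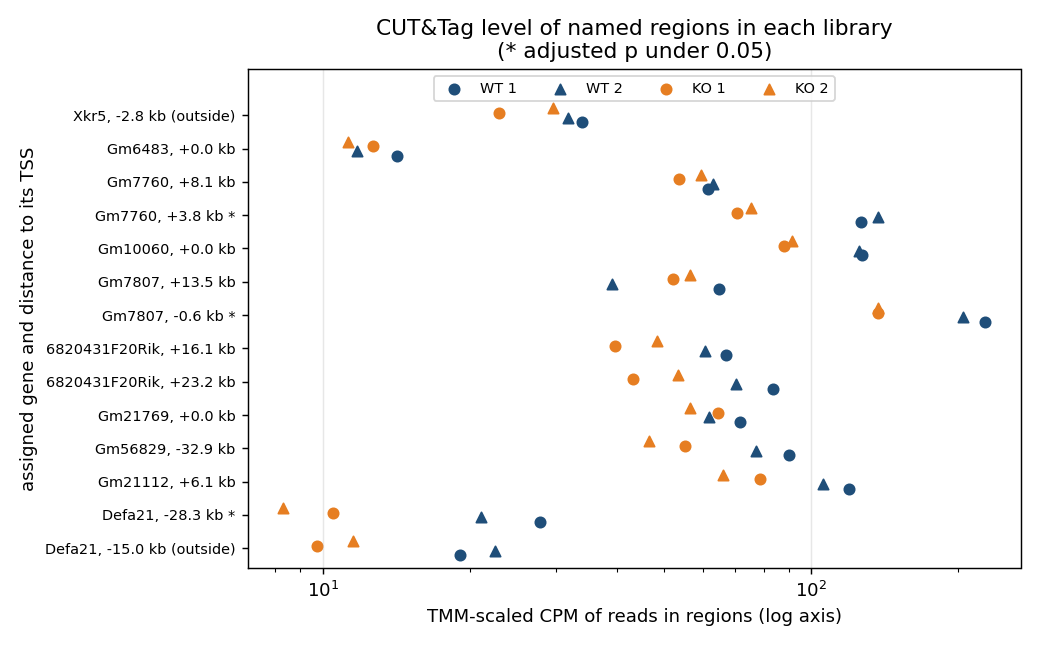
CPM of reads in regions (x axis, log scale) in each of the 4 CUT&Tag libraries for the 10 segment regions with the most reads, the region called beside Defa21 and the regions nearest each border, named by assigned gene and distance to its start, in order along the chromosome. The KO points lie left of the WT points for the 3 regions marked with an asterisk. They overlap the WT points at Gm6483, at Gm21769 and at the Gm7807 region 13.5 kb from its start.

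The regions with the lowest and highest log2 fold change had fewer reads. Among regions with a mean of at least 20 reads, the lowest was an intron region of 2610005L07Rik with 8.41 and 13.5 CPM in WT and 1.22 and 4.74 CPM in KO (log2 fold change -1.91, SE 0.57). An intergenic region of Gm20778 had a log2 fold change of -1.34 (SE 0.58). The highest was a region on the start of Gm21182 with 13.6 and 6.57 CPM in WT and 18.5 and 12.2 CPM in KO (log2 fold change 0.61, SE 0.34). Regions of Potefam3b and Gm10060 followed with 0.24 (SE 0.47) and 0.06 (SE 0.41). In each of these 3 the groups overlapped. With fewer reads, a region at the promoter of Gm6483, picked after its values were seen, had the highest log2 fold change of the segment (1.23, SE 0.75). It held 7 and 9 reads in WT and 22 and 25 reads in KO, and was the 1 segment region with both KO libraries above both WT libraries.

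The regions of AY761185 also had few reads and were picked after their values were seen. The region 2061 bases from its start held 37 and 20 reads in WT and 9 and 7 reads in KO. The region 5798 bases upstream held 25 and 23 reads in WT and 1 and 13 reads in KO. Their log2 fold changes were -2.13 and -2.02, with SEs of 0.67 and 0.75.

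Lower values were seen in each annotation class of the segment. Promoter regions of the segment had a median log2 fold change of -0.41 (23 of 25 below 0), intron regions -0.54 (14 of 15) and intergenic regions -0.68 (53 of 57). In the flanks the medians of the same classes were -0.00, 0.03 and -0.01. Intergenic regions made up 55.3% of the segment, 24.0% of the flanks and 28.0% of all regions. By gene group, the medians were -0.55 for the Gm genes, -0.61 for the POTE genes and -0.54 for the Rik transcripts. The medians of these 3 groups lay within 0.1 of each other on the log2 scale. Those of Defa21 (-1.09) and AY761185 (-2.07) were lower, on 2 segment regions each.

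The segment was also dense in regions and often marked as a peak. It held 51.5 regions per Mb, against 17.0 and 33.0 in the left and right flank and 29.3 over chromosome 8. The authors marked 69 and 58 of its 103 regions as peaks in the WT libraries and 70 and 53 in the KO libraries. All 4 libraries carried the mark in 34 segment regions (33.0%), in 8 of 100 flank regions and in 10.0% of all regions. Over all regions the mark was given to 30.1% and 32.9% in the WT libraries and to 58.6% and 44.4% in the KO libraries, and in the segment to 67.0% and 56.3% in WT and 68.0% and 51.5% in KO. Segment regions marked in all 4 libraries had a median log2 fold change of -0.54, and 30 of these 34 had both KO libraries below both WT libraries. Among all regions marked in all 4 libraries the median was -0.13 and 35.3% had both KO libraries below both WT libraries, and among the 8 flank regions the median was -0.19 and 3 did.

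Lower values were also seen at each read level. Segment regions with a mean under 50 reads, 50 to 100 reads and 100 reads or more had medians of -0.66, -0.56 and -0.45. Regions of 100 reads or more numbered 23 in the segment and 4 in the flanks. Among all regions tested, those of 100 reads or more had a median of -0.09 and were below 0 in 65.8%, so regions with many reads were lower in KO somewhat more often across the table.

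RNA of the segment genes was a separate readout, from other libraries of the same genotypes, and none of these genes passed the test. In bulk RNA, fewer cells of a type and less RNA per cell cannot be told apart. Of the 64 genes assigned to regions of the 6 Mb, 29 passed the count filter and 2 were called at an adjusted p under 0.05 (edgeR quasi-likelihood test, Benjamini-Hochberg over 15298 genes), against 3.43% of all genes tested. Both were higher in KO, a call made for 1.77% of all genes tested. Of the 26 segment genes, 6 had no count in any library, 8 were tested and 0 were called by edgeR or by DESeq2. At an unadjusted p under 0.05, 3 of the 8 were lower in KO, against 6.33% of all genes tested. Among these 3 are both 2610005L07Rik entries, which overlap on the same strand and may share reads. The counts over the 8 genes are therefore not counts of independent genes. The median log2 fold change of the 8 was -0.47, against 0.01 over all genes tested, and 5 of the 8 were below 0, against 48.9%. Every KO library lay below every WT library in 2 of the 8, against 9.26% of all genes tested.

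The 3 genes with an unadjusted p under 0.05 were the 2610005L07Rik entries and Gm21811. The entry ENSMUSG00000121345, described as a cadherin 11 pseudogene, measured 83.4, 63.1 and 87.7 CPM in WT and 56.3, 55.6 and 63.3 CPM in KO (log2 fold change -0.42, SE 0.14, adjusted p = 0.215, edgeR). The entry ENSMUSG00000071793, which lies inside the first on the same strand, measured 29.3, 21.9 and 33.9 CPM in WT and 20.8, 18.0 and 20.5 CPM in KO (log2 fold change -0.52, SE 0.17, adjusted p = 0.186, edgeR). In the first entry the highest KO library passed the lowest WT library by a little, and in the second the groups did not overlap. Because the entries overlap, their reads cannot be assigned to 1 of them with certainty. Gm21811 measured 3.50, 4.28 and 3.90 CPM in WT and 2.32, 2.78 and 2.61 CPM in KO (log2 fold change -0.59, SE 0.18, adjusted p = 0.155, edgeR), with no overlap.

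The most abundant segment transcript was the cadherin 11 pseudogene 6820431F20Rik (ENSMUSG00000121492), at 96.5 CPM per kb in WT and 66.9 CPM per kb in KO. It measured 300, 595 and 455 CPM in WT and 247, 254 and 435 CPM in KO (log2 fold change -0.53, SE 0.29, adjusted p = 0.530, edgeR). KO 3 lay among the WT libraries. The other 6820431F20Rik entry, ENSMUSG00000071796, overlaps this one on the same strand and had 0 counts in every library. Reads of the shared stretch may have been counted for 1 entry only, so neither level is certain. The 3 highest libraries, WT 2, WT 3 and KO 3, were also those with the highest mitochondrial share of counts, at 5.71%, 3.52% and 4.64%, against 2.31% to 2.68% in the others. With that split as a covariate the log2 fold change was -0.27. It was -0.86 without KO 3 and -0.29 without WT 2.

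The other 4 tested segment genes had low levels and overlapping groups. Gm6483 had a log2 fold change of -0.60 (SE 0.38), Gm7807 0.01 (SE 0.52), Gm56829 0.11 (SE 0.27) and Gm21092 0.26 (SE 0.28). That of Gm6483 was -0.30 without KO 2 and -0.93 without KO 3, and that of Gm21092 was 0.017 without WT 1 and 0.39 without WT 3. Over all 13 alternative fits, that of Gm21092 ranged from 0.017 to 0.48. Gm7807, at the region with the most CUT&Tag reads, had 0.442 ± 0.240 CPM in the WT group, against 0.450 ± 0.152 CPM in the KO group (SD, n = 3 each). Of the nonzero RNA values of segment genes, 78.8% were not whole numbers, against 7.83% in the right flank and 23.6% over all genes. Expected counts are fractional where reads are divided among overlapping or similar features, and the levels of these genes are uncertain to that extent.

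**Figure D5:**
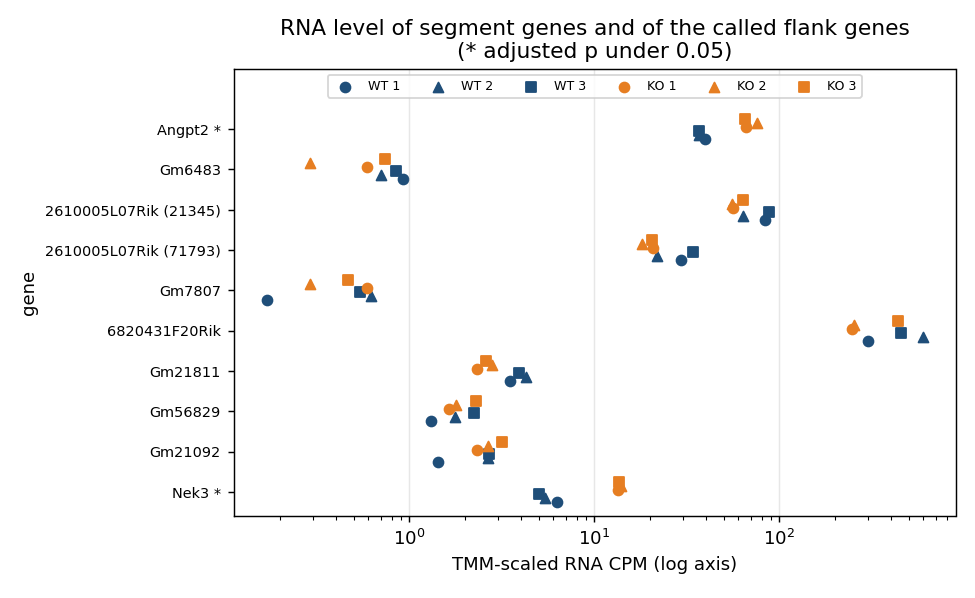
RNA level in CPM (x axis, log scale) of the 8 tested segment genes and of the 2 called flank genes, Angpt2 and Nek3, in each of 3 WT and 3 KO libraries, in order along the chromosome. The KO points of Angpt2 and Nek3 lie right of every WT point, those of Gm21811 lie left, and those of 6820431F20Rik overlap with WT.

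In the flanks, 2 genes rose and the other 19 tested were not called. Among all 29 tested genes of the 6 Mb, 3 had every KO library above every WT library, against 9.69% of all genes tested. Nek3, a NIMA-related kinase gene in the right flank, measured 6.25, 5.43 and 5.01 CPM in WT and 13.3, 13.9 and 13.6 CPM in KO, a 2.45-fold rise (log2 fold change 1.29, SE 0.14, adjusted p = 0.00339, edgeR). Every KO library lay above every WT library, and the call held in all 13 alternative fits. None of the 4 CUT&Tag regions of Nek3 had an adjusted p under 0.05. The Nek3 entry to which the authors assigned them spans 22618702 to 22622318 on the minus strand, and its start may not be that of the promoter shown. The region 2143 bases upstream of the start of this entry measured 3.88 and 3.81 CPM in WT and 7.81 and 9.19 CPM in KO (log2 fold change 1.13, SE 0.59). The region on that start measured 7.76 and 8.30 CPM in WT and 9.02 and 5.93 CPM in KO. The upstream values were separate between the groups, on 11 to 32 reads per library.

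Angpt2, encoding a ligand of the endothelial receptor Tie2, lies in the left flank. It measured 39.4, 36.6 and 36.9 CPM in WT and 65.9, 75.3 and 65.3 CPM in KO, a 1.83-fold rise (log2 fold change 0.87, SE 0.11, adjusted p = 0.00575, edgeR). Every KO library lay above every WT library, but without WT 3 the adjusted p was 0.0572. Its 8 CUT&Tag regions had log2 fold changes from -0.43 to 0.62, and none had an adjusted p under 0.05. Angpt2 lies within Mcph1 on the opposite strand, and the sources used here do not state whether counting used strand. Mcph1, which encodes microcephalin, measured 21.2 ± 1.03 CPM in WT libraries and 19.4 ± 0.537 CPM in KO libraries (SD, n = 3 each).

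Csmd1, a large transmembrane gene of the nervous system that reaches into the left flank, measured 2.66, 3.21 and 3.78 CPM in WT and 1.48, 1.75 and 1.79 CPM in KO (log2 fold change -0.94, SE 0.22, adjusted p = 0.0611, edgeR). It was not called by edgeR, and it was called by DESeq2 and with the mitochondrial split as a covariate. The 10 flank genes with the highest mean CPM in the WT libraries had log2 fold changes between -0.19 and 0.10 and none was called. Among them, Plat, the tissue plasminogen activator, had 496 ± 37.7 CPM in the WT group, against 490 ± 37.8 CPM in the KO group (SD, n = 3 each). Ckap2, a spindle protein, measured 324 ± 29.8 and 318 ± 12.3 CPM, and Kat6a, a histone acetyltransferase, 153 ± 27.1 and 134 ± 9.02 CPM. Vdac3, Agpat5, Slc20a2, Ap3m2, Vps36, Ikbkb and Slc25a15 completed the 10. Slc25a15, with a WT mean of 37.78 CPM, stood just above the called gene Angpt2, with 37.65 CPM. The absence of calls therefore depends on ranking by the WT libraries.

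Defensin RNA was at or near the limit of detection in these cells. All 45 alpha-defensin symbols in the table, 28 genes and 17 pseudogenes, had 0 counts in each of the 6 libraries. A count of 0 allows a level of up to 0.116 to 0.151 CPM per library, taken as 3 counts and covering counting error only. Of 24 beta-defensin genes of chromosome 8, 22 had 0 counts, and Defb1 and Defb13 had 3 counts in all. No alpha-defensin transcript was detectable at this depth in WT, so a decrease of Defa21 RNA could not have been measured.

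Genes of defensin processing and of Paneth cells formed a list of 20, of which 9 had 0 counts, 4 were tested and 0 were called by edgeR. The list's median log2 fold change was -0.17, against 0.01 over all genes tested. Mmp7, the protease that activates mouse alpha-defensins, had 0 counts. Tcf7l2, a TCF/LEF factor that reads Wnt signals, measured 42.9, 50.9 and 47.5 CPM in WT and 34.5, 37.5 and 36.8 CPM in KO (log2 fold change -0.38, unadjusted p = 0.00965, adjusted p = 0.141, edgeR). Its groups did not overlap. Tlr4, a receptor for bacterial lipopolysaccharide, had a log2 fold change of 0.65 (adjusted p = 0.347, edgeR), Lyz2 -0.68 (adjusted p = 0.590, edgeR) and Sox9, a factor of both neural stem and Paneth cells, 0.04 (adjusted p = 0.941, edgeR).

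The cell labels were checked with marker lists. All 10 markers of neural stem cells and radial glia were expressed, and their summed level was 6899 to 7212 CPM in WT and 7421 to 8385 CPM in KO. Of the 10, Vim was called higher and Slc1a3 lower in KO (edgeR), where 3.43% of all genes tested were called. Of 4 astrocyte markers, S100b was called lower. The 6 markers of Paneth cells and intestinal epithelium summed to at most 0.926 CPM in any library, with Mmp7 and Ang4 at 0. The neutrophil list, cells that express alpha-defensins in other species, summed to at most 0.156 CPM, with 4 of 5 markers at 0. Endothelial and pericyte markers, the usual source of Angpt2, summed to 0.534 to 1.18 CPM in WT and 0.156 to 0.540 CPM in KO, with Cdh5 and Cldn5 at 0. These 4 markers held 86 counts in all, and their part in the Angpt2 result was not tested.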

How the data were processed

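CUT&Tag was measured in 2 WT and 2 KO libraries and RNA-seq in 3 WT and 3 KO libraries. HISAT2, StringTie and the GRCm39 build appear in the submitters' processing notes, without versions or roles. No source used here states the strand setting, the peak caller or the handling of reads that match several places. The deposited RNA values are expected counts for each Ensembl gene, unscaled, and were rounded before testing. The authors' counts per CUT&Tag region are whole numbers of reads over regions merged across the 4 libraries, with a peak mark per library. The RPM columns, deposited beside the counts, are the count plus 1 scaled to a library total, and served only to recover those totals. The authors' deposited log2 fold change and p-value or q-value per region come from a test that is not named. The authors also supplied each region's annotation class, gene and distance to the gene start.

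Both tables were fitted whole with edgeR 4.0.16 in R 4.3.3 (TMM scaling, filterByExpr with a minimum count of 10, robust glmQLFit, glmQLFTest), KO against WT, with Benjamini-Hochberg adjustment over all features and a threshold of 0.05. The filter kept 69209 regions, 202 of them members, and 15298 genes. An SE is the log2 fold change divided by the square root of F. Tested on simulated data, the CUT&Tag fit recovered 37% of 2-fold and 94% of 4-fold changes over 69266 regions, and the RNA fit 78% and 100% over 15289 genes. The changed features had a mean count of at least 20, and the simulated spread was set below that of the data, so these shares may be too high. Promoter windows were matched by symbol to a RefSeq table on GRCm38.p6, whose coordinates do not compare with those of the regions. No genome was used, so region sequences are not shown.

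Named regions were those with an adjusted p under 0.05, the 10 with the most reads, the 3 lowest and 3 highest log2 fold changes at a mean of at least 20 reads, and those nearest each border. Named genes were called genes, tested segment genes and the 10 flank genes with the highest mean CPM in WT. The members and lists were chosen with earlier results of these data known. Marker lists of neurons, astrocytes, oligodendrocyte lineage, microglia and leukocytes and erythroid cells were read too: microglia and leukocyte markers summed to at most 0.576 CPM and erythroid markers to at most 0.0831 CPM in any library, neuron markers to 528 to 939 CPM, astrocyte markers to 912 to 1331 CPM and oligodendrocyte markers to 2130 to 3508 CPM.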

Additional observations from a re-analysis of the deposited data

How the results depend on the processing

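The log2 difference between segment and flanks was -0.53 and ranged from -0.63 to -0.43 when each library was left out. With only the regions marked as peaks in all 4 libraries it was -0.38; the other 13 alternatives moved it by less than 0.11, the SD between replicates. The 95 segment regions below 0 became 94 with library totals and 86 without WT 1, and the count stayed within 1.5 times in the 11 alternatives run. The 3 called segment regions became 1 with library totals and 5 with the replicate number as a block, and ranged from 0 without either KO library to 6 without WT 2. Without WT 1, 1 was called. Leaving out a CUT&Tag library leaves a lone library, whose spread is taken to equal that of the other genotype. The replicate numbers do not pair the libraries: same-numbered CUT&Tag deviations correlated at 0.0155 and same-numbered RNA deviations at 0.460, -0.369 and 0.271, so the block result is given here only. With the block, the same 2 of the 64 assigned genes were called, and 229 instead of 525 over all genes. Without WT 3 that count was 1, and it was 2 without any other RNA library. DESeq2 called 3 of the assigned genes and 958 over all genes, the mitochondrial split as a covariate 3 and 1695, and leaving out a library 145 to 506 over all genes. Gm7807 RNA, at 0.01, changed sign to -0.0023 with RLE size factors and -0.00076 with no count filter, and ranged from -0.37 to 0.30 with libraries left out. Gm56829, at 0.11, ranged from -0.069 to 0.30 with libraries left out. The cause was not tested. The CUT&Tag data had 2 libraries a group and a common coefficient of variation of 18.9%. In simulated data with a smaller spread, 2-fold changes were recovered in 37% of the changed regions, so the share in these data may be lower.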
